A study of Mus musculus with 4 samples.

Results

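A total of 849 genes changed over time in a different way in *Mst-/-* and wild type embryoid bodies (EBs), of 12513 genes that could be compared and 16358 genes measured. For each gene the change in *Mst-/-* EBs (day 8 minus day 4, log2) was set against the same change in wild type EBs, and the first minus the second is called the interaction value here. A value of 1 means that the change over time differed 2-fold. A positive value means that the signal rose more, or fell less, in *Mst-/-* EBs. The 849 genes had an interaction value of 1 or more (367 genes, the higher genes) or of -1 or less (482 genes, the lower genes). Each had at least 3 probe sets, at least 75% of them in the direction of the gene, and still passed 2-fold when signals below background were raised to it.

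EBs are aggregates of embryonic stem (ES) cells that form early tissues when the factors that keep ES cells undifferentiated are removed. Mst1 and Mst2 are kinases of the Hippo pathway, which holds the coactivator Yap out of the nucleus. The study compared EBs of *Mst-/-* ES cells, in which exons of the kinase domain of both genes are deleted, with EBs of wild type ES cells, each at day 8 and day 4. Each genotype and day had 1 Affymetrix mouse exon array, which made 4 arrays. The *Mst-/-* lines were derived from blastocysts of *Mst1+/-* *Mst2-/-* parents, and the sources used here do not say which of the study's *Mst-/-* lines the arrays hold. One label of the *Mst-/-* day 8 array names day 4, while its title and its cell type name day 8, and it was taken as day 8.

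As no condition was repeated, the values below come without tests or p-values, and each carries the error of 4 arrays. The SD printed beside an interaction value was taken over probe sets of the gene and so shows spread within the same arrays, not between cultures. A difference between the genotypes that is the same on both days cancels in the interaction value. The deletion itself was seen on both days: 2 of the 13 probe sets of *Stk4*, the gene of Mst1, had signals of 3.83 to 4.80 on the *Mst-/-* arrays and 11.42 to 12.03 on the wild type arrays. Their own interaction values were 1.12 and -0.52, with *Mst-/-* signals far below background. The interaction value of *Stk4* was 0.12, but 11 of its 13 probe sets were not lost, so it does not show that the deletion cancels. Large differences on both days left small interaction values for *Hprt* (-0.24), an enzyme of purine salvage, and for *Eif2s3y* (0.16), a gene of the Y chromosome. The lower signals of both genes were below background, and with signals raised to it the values were -0.66 and -0.04. *Hprt* was at 10.42 at day 8 and 11.09 at day 4 in *Mst-/-* EBs, against 4.39 at day 8 and 4.82 at day 4 in wild type EBs. *Eif2s3y* was at 4.22 at day 8 and 4.07 at day 4 in *Mst-/-* EBs, against 10.38 at day 8 and 10.39 at day 4 in wild type EBs. The lines thus differed in more than the deleted exons, and the deletion and other differences between the lines cannot be told apart. The background of an array, set at the 95th percentile of 1005 genes of smell and pheromone receptors, lay between 6.92 and 7.04 on the log2 scale. Fewer cells of a type and less RNA per cell cannot be told apart in such samples.

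In an EB, as in the embryo, epiblast cells first pass through a primitive streak stage, in which the T-box factors T and Eomes and the ligands Wnt3 and Nodal are active, and then form mesoderm and endoderm. Cells of the mesoderm go on to heart, vessels, primitive blood and mesenchyme. Genes of the streak are therefore known to be transient, and genes of blood and connective tissue come later.

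Promoters of some of these genes are shown first, because they hold short motifs that factors of these stages are known to bind. Sequences are from RefSeq (GRCm38.p6), on the strand of the gene, from 250 bases before to 50 bases after the start of transcription. *Cyp26a1*, which degrades retinoic acid, had the highest interaction value. Its window (chr19:37697558-37697857, plus strand) held a direct repeat of the hexamers AGGTCA or AGTTCA with 5 bases between them, the form that retinoic acid receptors are known to bind. The capitals mark the repeat, which lies on the opposite strand in all the windows shown.
*Cyp26a1*: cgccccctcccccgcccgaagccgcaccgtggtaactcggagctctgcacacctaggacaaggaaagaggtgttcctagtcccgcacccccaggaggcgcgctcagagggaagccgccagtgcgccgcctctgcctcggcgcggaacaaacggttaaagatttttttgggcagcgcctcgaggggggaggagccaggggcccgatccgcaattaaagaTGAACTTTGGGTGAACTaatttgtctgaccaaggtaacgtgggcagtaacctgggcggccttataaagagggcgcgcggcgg

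The search covered both strands, and matches on either strand were counted once per gene. This repeat was found in 13 of 27025 genes with a promoter (0.0481%) and in 3 of the 10033 tested genes that had one (0.0299%). All 3 were among the 849 genes: *Cyp26a1*, *Ppbp*, a chemokine of platelets, and *Blvrb*, a biliverdin reductase. Of all genes tested, 6.78% were among the 849. *Cyp26a1* was shown for its high interaction value, so its place there was fixed beforehand, and 3 genes are too few for a share. The stretches around the other two matches are at chr5:90768268-90768308 and chr7:27452379-27452435, both on the plus strand.
*Ppbp*: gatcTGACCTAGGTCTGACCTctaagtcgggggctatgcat
*Blvrb*: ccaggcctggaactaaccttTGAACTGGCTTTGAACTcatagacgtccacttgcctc

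*Ppbp* was listed at 6.90 at day 8 and 6.78 at day 4 in *Mst-/-* EBs, both below background. In wild type EBs *Ppbp* was at 9.44 at day 8 and 6.27 (below background) at day 4. Its SD over 5 probe sets was 2.10, and its interaction value was -2.445 with signals raised to background. *Blvrb* was at 10.79 at day 8 and 10.83 at day 4 in *Mst-/-* EBs, against 11.64 at day 8 and 10.48 at day 4 in wild type EBs. So the repeat stood before genes of opposite interaction value, 4.71 for *Cyp26a1* and -3.05 and -1.20 for *Ppbp* and *Blvrb*.

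The second motif was AGATAA, which GATA factors of red blood cells are known to bind. It was found in 8.24% of the tested genes with a promoter and in 12.7% of all promoters. It was in 9.57% of the higher and 13.2% of the lower genes with a promoter. Among the genes that rose in wild type EBs alone and ended further apart it was found in 26 of 139 (18.7%). Among those that rose in both genotypes but less in *Mst-/-* EBs, with a gap that did not close, it was in 5 of 64 (7.81%). Among those that rose in *Mst-/-* EBs alone and came no closer to wild type it was in 3 of 17 (17.6%). Among the lower red cell genes it was in 3 of 8 (37.5%). Those 3 red cell genes were *Alas2*, the heme synthesis enzyme of red cells, *Hemgn*, a nuclear protein of blood precursors, and *Epb42*, a protein of the red cell membrane. The capitals mark the motif on either strand in the window of *Alas2* (chrX:150547167-150547466, plus strand) and in stretches of *Hemgn* (chr4:46404134-46404175) and *Epb42* (chr2:121037078-121037123), both on the minus strand.
*Alas2*: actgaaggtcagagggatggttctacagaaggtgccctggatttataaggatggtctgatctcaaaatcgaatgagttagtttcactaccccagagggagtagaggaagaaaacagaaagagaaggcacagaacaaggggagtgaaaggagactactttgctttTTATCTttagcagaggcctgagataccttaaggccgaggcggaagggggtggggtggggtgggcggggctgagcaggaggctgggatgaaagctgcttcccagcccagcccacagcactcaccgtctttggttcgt
*Hemgn*: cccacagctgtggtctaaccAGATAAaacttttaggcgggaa
*Epb42*: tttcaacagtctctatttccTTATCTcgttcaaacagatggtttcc

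Further motifs were searched. GGAATG, the site of the Tead factors through which Yap acts, was in 17.4% of the higher and 16.5% of the lower genes. It was in 14.9% of all genes tested and in 16.6% of all promoters. AGGTGTGA, a site of T-box factors, was in 5 higher genes (1.77%) and 3 lower genes (0.824%) with a promoter. This compares with 1.17% of all genes tested and 1.48% of all promoters. These matches describe letters in a window and say nothing of binding.

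Across all genes tested the median interaction value was 0.04 and its SD was 0.64. Fewer genes moved in *Mst-/-* EBs: 2304 tested genes changed at least 1.5-fold over time in *Mst-/-* EBs, against 3274 in wild type EBs. At 2-fold, 465 genes (3.72%) had a higher and 654 (5.23%) a lower interaction value, 1119 genes in all (8.94%), before the demands on probe sets and background. These are termed called, and the genes of a list are counted this way below, with the number that also met the demands where it is smaller. Each list count below is to be read beside these shares of 3.72% higher and 5.23% lower. Several lists share genes with those that the study names from these arrays, as given further on. After the demands 367 genes (2.93%) and 482 genes (3.85%) remained, the 849 genes described here (6.78%). All probe sets agreed in sign for 562 of the 849 genes, and 634 were above background on all 4 arrays. The rule chose these genes by the interaction value, so their number is a description. Of the 1005 receptor genes, 7.86% passed 2-fold with no filter, so that 2-fold alone says little of a dim gene, and 1 of them was among the 849. Just inside the threshold lay *Plac8*, *Abcd4* and *Ralgps2* at 1.0 and *Arc*, *Dab2ip* and *Dsc2* at -1.0. Just outside lay *Pms1* and *Osgepl1* (both 0.995), *Rabl2* (0.99), *Mreg* (-0.995), *Tcaf2* (-0.99) and *Tcf21* (-1.07), which fell under 2-fold with signals raised to background.

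**Figure D1:**
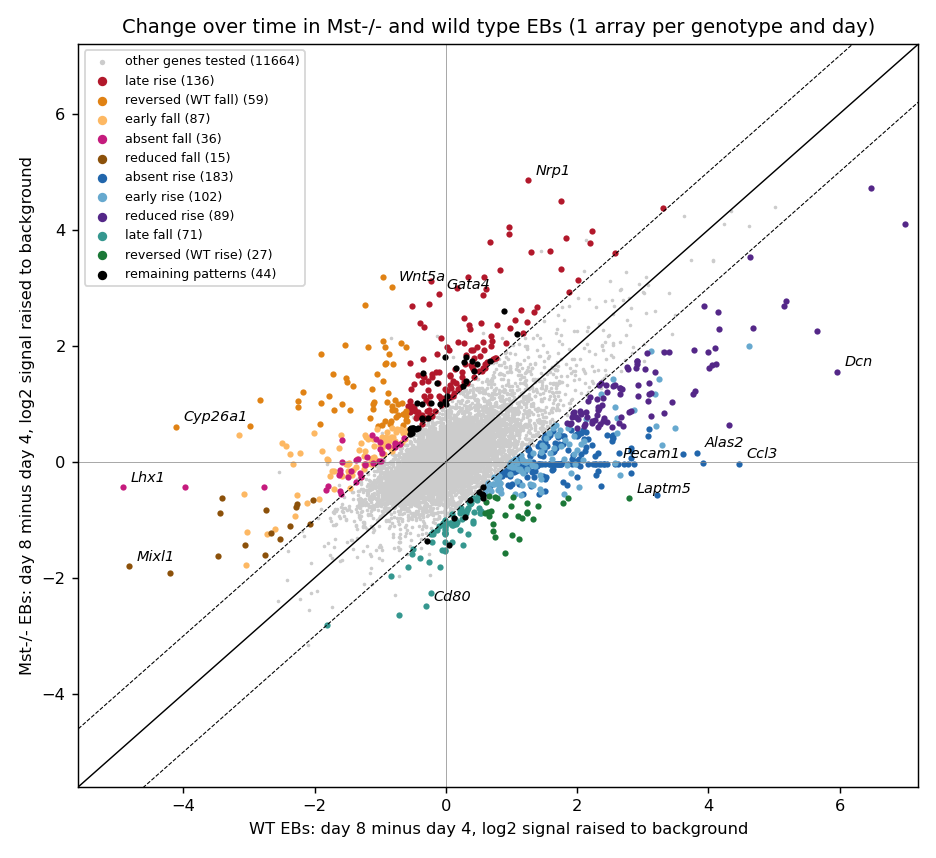
Change over time (day 8 minus day 4, log2 signal with signals below background raised to it) in *Mst-/-* EBs on the vertical axis and in wild type EBs on the horizontal axis, 1 point per gene. Grey points are the 11664 genes tested that are not among the 849, coloured points are the patterns described in the text, black points the 44 genes of the remaining patterns, the solid line marks an equal change and the dashed lines a 2-fold difference. The points spread further along the horizontal axis, and genes that rose in wild type EBs and hardly moved in *Mst-/-* EBs form a row at 0.

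The 849 genes were sorted by what they did, with 1.5-fold as the least change over time. Genes that rose in *Mst-/-* EBs and ended closer to wild type EBs than they began were called a late rise. Genes that changed in wild type EBs alone were called absent where the genotypes were further apart at day 8 than at day 4, and early where they were closer at day 8. Genes that changed in both genotypes, but less in *Mst-/-* EBs, were called reduced, or early if the gap closed. Opposite changes were called reversed. The sorting itself puts the larger gap between genotypes at day 4 in late and early genes, and at day 8 in absent and reduced genes. With an interaction value past 2-fold that gap must come near 1.5-fold or more. Counts below of genes that differed on that day thus follow largely from the sorting. The names stand for a pattern on 4 arrays and not for a course between the days. In particular, early says only that the change was smaller in *Mst-/-* EBs and that the gap was smaller at day 8. The *Mst-/-* signal of day 4 was within 1.5-fold of the wild type signal of day 8 in 70 of 87 early falls and 63 of 102 early rises. A peak before day 4 was not measured.

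Late rise held 136 genes. Their median signal was 10.08 at day 8 and 8.03 at day 4 in *Mst-/-* EBs, against 10.12 at day 8 and 9.69 at day 4 in wild type EBs. At day 4, 135 of the 136 were lower in *Mst-/-* EBs by at least 1.5-fold, whereas 110 were within 1.5-fold of wild type at day 8. For 81 genes the *Mst-/-* signal of day 8 was within 1.5-fold of the wild type signal of day 4. That the gap lay at day 4 follows from the sorting. The lowest of the 4 medians was that of the *Mst-/-* array of day 4.

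Factors of heart and gut formation were found here. *Gata4*, a zinc finger factor of heart and endoderm, was at 11.40 at day 8 and 8.52 at day 4 in *Mst-/-* EBs, against 11.20 at day 8 and 11.31 at day 4 in wild type EBs, an interaction value of 2.99 ± 0.64 (SD over 12 probe sets). *Hand1*, a factor of the first heart and of extraembryonic mesoderm, was at 11.11 at day 8 and 7.06 at day 4 in *Mst-/-* EBs, against 11.30 at day 8 and 10.34 at day 4 in wild type EBs (3.09 ± 1.03, 5 probe sets). Both were within 1.5-fold of wild type at day 8, while at day 4 they differed from it by -2.79 and -3.28 on the log2 scale.

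*Isl1*, a marker of second heart field progenitors, had 9.36 at day 8 and 7.0 at day 4 in *Mst-/-* EBs, against 9.49 at day 8 and 8.71 at day 4 in wild type EBs (1.58 ± 0.85, 11 probe sets). *Tbx20* (2.05), needed for heart chamber growth, and *Meis2* (1.58) followed the same pattern. *Tbx5*, a factor of the heart tube and atria, did not. It was listed below background in *Mst-/-* EBs, at 6.38 at day 8 and 5.73 at day 4, against 8.66 at day 8 and 6.72 (below background) at day 4 in wild type EBs. *Nkx2-5* had an interaction value of 0.17 and *Mef2c* of -0.05. So 9 of the 20 cardiac transcription factors tested were called higher, 7 of which met the demands, and 2 lower (*Tbx5* and *Gata5*), beside 3.72% and 5.23% of all genes, and their median was 0.56 beside 0.04.

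Some receptors and ligands of the vessel lineage were late as well. The vessel and blood progenitor list as a whole had 4 of 26 genes called higher and 8 lower, and its early rises are given further on. *Kdr*, the receptor of VEGF that marks the mesoderm from which blood and vessels form, was at 9.83 at day 8 and 7.11 at day 4 in *Mst-/-* EBs, against 10.96 at day 8 and 11.22 at day 4 in wild type EBs (2.98 ± 0.71, 33 probe sets). *Nrp1*, a coreceptor of VEGF and semaphorins, was at 11.82 at day 8 and 6.96 at day 4 in *Mst-/-* EBs, against 12.55 at day 8 and 11.30 at day 4 in wild type EBs (3.60 ± 1.27, 22 probe sets). For both the *Mst-/-* signal at day 4 was near background and the other three signals were not. With the brightest probe set alone *Nrp1* had an interaction value of 0.17. *Kitl*, the ligand of Kit, was at 10.35 at day 8 and 7.24 at day 4 in *Mst-/-* EBs, against 9.79 at day 8 and 10.01 at day 4 in wild type EBs (3.33 ± 0.89, 14 probe sets). *Pdgfra* (2.01), *Kit* (1.10) and *Kdr* are neighbours on the genome, and all 3 were in this pattern.

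The ligand *Bmp5* was listed at 10.88 at day 8 and 5.50 (below background) at day 4 in *Mst-/-* EBs, against 10.18 at day 8 and 9.22 at day 4 in wild type EBs. Its interaction value was 4.42 ± 1.02 (9 probe sets), and 2.96 with the day 4 signal raised to background. *Bmp2* (1.79) and *Bmp4* (1.05) were in the pattern too, as were the BMP targets *Id1* (1.40) and *Id3* (1.48). *Id2* (-0.48) and *Id4* (-0.09), of the same family, were not called. Of 21 genes of BMP and Nodal signaling tested, 9 were called higher and 0 lower, with a median of 0.94.

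Other late genes were *Spink1* (3.11), *Tmprss2* (2.83) and *Foxa1* (1.86), all of endoderm, *Tgfb2* (2.48), a Yap and Tead target, *Cdx2* (1.96), a factor of trophoblast and of the posterior embryo, and *Casp8* (1.38), an initiator of cell death. *Hoxb2*, a Hox gene of the hindbrain, was listed at 10.15 at day 8 and 5.90 (below background) at day 4 in *Mst-/-* EBs, against 10.28 at day 8 and 9.94 at day 4 in wild type EBs. Its SD over 3 probe sets was 2.36 beside an interaction value of 3.91, and the brightest of them gave 0.45, so its size is uncertain. The neighbour of *Hoxb2*, *Hoxb1*, was an early fall at 1.55, and of 29 Hox genes tested these 2 were called higher and 1, which did not meet the demands, lower.

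**Figure D2:**
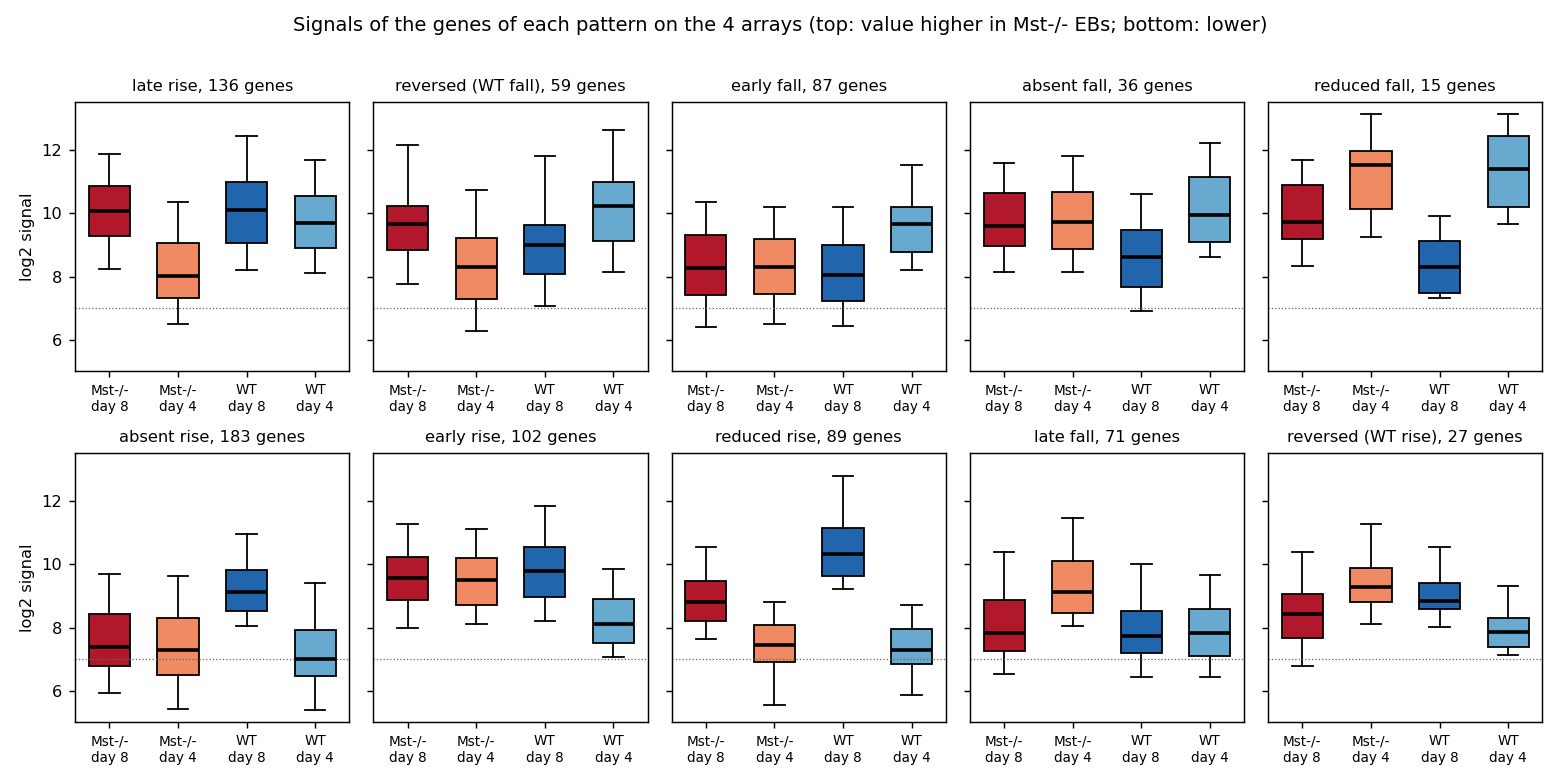
Log2 signals (median over probe sets) of the genes of the 10 largest patterns on the 4 arrays, with *Mst-/-* day 8 and day 4 left of wild type day 8 and day 4. Boxes span the quartiles with the median as a line, whiskers reach from the 5th to the 95th percentile, and the dotted line at 7 is close to background. In a late rise the *Mst-/-* day 4 box stands apart (median 8.03 beside 9.69 to 10.12), and in an absent rise the wild type day 8 box does (median 9.14 beside 7.04 to 7.40).

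Reversed courses were found in both directions. In 59 genes the signal fell in wild type EBs and rose in *Mst-/-* EBs. Their median was 9.68 at day 8 and 8.31 at day 4 in *Mst-/-* EBs, against 8.99 at day 8 and 10.24 at day 4 in wild type EBs. For 33 of them the *Mst-/-* level at day 8 was within 1.5-fold of the wild type level at day 4. Of the 12 genes with the highest interaction values, 8 belonged to this pattern, both as measured and with signals raised to background.

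*Wnt5a*, a ligand that acts without beta-catenin, was at 9.97 at day 8 and 6.81 (below background) at day 4 in *Mst-/-* EBs, against 9.27 at day 8 and 10.10 at day 4 in wild type EBs (3.99 ± 1.42, 14 probe sets). Of 15 Wnt ligands tested, *Wnt5a*, *Wnt2b* (2.07) and *Wnt3* (1.92) were called higher and none lower, while the median was -0.13. *Wnt2b* turned to -0.32 with the brightest probe set alone. *Frzb*, a secreted antagonist of Wnt, was at 10.08 at day 8 and 8.21 at day 4 in *Mst-/-* EBs, against 9.20 at day 8 and 11.10 at day 4 in wild type EBs (3.77 ± 1.34, 10 probe sets). Other parts of the Wnt pathway followed the same reversed course: the antagonist *Dkk1* (2.88), the ligand *Rspo3* (2.92) and its receptor *Lgr5* (2.35).

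*Cyp26a1* belonged here by a narrow margin. Its signal was 10.77 at day 8 and 10.16 at day 4 in *Mst-/-* EBs, against 8.14 at day 8 and 12.26 at day 4 in wild type EBs (4.71 ± 0.41, 8 probe sets). The fall in wild type EBs was 4.11 and the rise in *Mst-/-* EBs was 0.60. *Rgs5*, a marker of pericytes, was at 10.28 at day 8 and 7.09 at day 4 in *Mst-/-* EBs, against 9.40 at day 8 and 10.37 at day 4 in wild type EBs (4.14 ± 1.61, 8 probe sets). *Cxcr4*, the receptor of a chemokine and a marker of definitive endoderm, was at 8.41 at day 8 and 7.36 at day 4 in *Mst-/-* EBs, against 7.36 at day 8 and 10.20 at day 4 in wild type EBs (3.90 ± 1.61, 4 probe sets). In each of them the highest of the 4 signals was that of wild type EBs at day 4.

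The homeobox genes *Msx2* (3.93 ± 0.65, 4 probe sets) and *Msx1* (2.72 ± 0.26, 3 probe sets), targets of BMP signals, were also reversed. *Msx2* was at 11.21 at day 8 and 8.52 at day 4 in *Mst-/-* EBs, against 9.88 at day 8 and 11.12 at day 4 in wild type EBs. *Sox17*, a factor of endoderm and of vessels, was at 10.00 at day 8 and 7.92 at day 4 in *Mst-/-* EBs, against 9.05 at day 8 and 10.01 at day 4 in wild type EBs (3.04 ± 1.30, 11 probe sets). *Tbx3* (2.90), *Bmper* (3.56), which binds BMPs, *Cfc1* (3.31), a coreceptor of Nodal, *Cdh2* (1.46), the neural cadherin, and *Sprr2a* (3.60), a protein of barrier epithelia, completed the reversed genes that were named. For *Msx2*, *Sox17* and *Tbx3* the *Mst-/-* signal at day 8 equalled the wild type signal at day 4 to within 0.10. *Sprr2a* is one of several near-identical genes, and its probe sets may not tell them apart.

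The opposite reversal, a rise in wild type EBs and a fall in *Mst-/-* EBs, was found in 27 genes. *Laptm5*, a lysosomal protein of blood cells, was at 8.38 at day 8 and 9.01 at day 4 in *Mst-/-* EBs, against 9.92 at day 8 and 7.13 at day 4 in wild type EBs (-3.42 ± 1.36, 12 probe sets). *Sox2*, a factor of pluripotency and of neural cells, was at 11.68 at day 8 and 12.27 at day 4 in *Mst-/-* EBs, against 10.83 at day 8 and 10.18 at day 4 in wild type EBs (-1.25 ± 0.28, 6 probe sets). *Ifitm3*, an interferon-induced membrane protein, was at 11.16 at day 8 and 12.09 at day 4 in *Mst-/-* EBs, against 11.10 at day 8 and 10.44 at day 4 in wild type EBs (-1.59 ± 0.19, 5 probe sets). These genes began higher in *Mst-/-* EBs at day 4. *Ntrk2* (-3.04), a receptor of neurotrophins, *Scrn1* (-2.50) and *Pde2a* (-2.46) had the same course.

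Genes of the primitive streak were found among the higher genes. Of 26 streak and early mesoderm genes tested, 18 were called higher and 0 lower, beside 3.72% and 5.23% of all genes, and the median was 1.70. Their median signal was 8.49 at day 8 and 8.70 at day 4 in *Mst-/-* EBs, against 7.80 at day 8 and 10.00 at day 4 in wild type EBs. The 17 of them that met all demands fell into several patterns: 7 early falls, 4 reduced falls, 3 late rises, 2 reversed and 1 absent fall.

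The reduced falls were 15 genes, and all 15 were higher in *Mst-/-* EBs at day 8 by at least 1.5-fold. *Mixl1*, a homeobox gene of the streak, was at 9.72 at day 8 and 11.52 at day 4 in *Mst-/-* EBs, against 7.74 at day 8 and 12.57 at day 4 in wild type EBs (3.03 ± 0.67, 5 probe sets). *Eomes* was at 11.22 at day 8 and 11.85 at day 4 in *Mst-/-* EBs, against 8.91 at day 8 and 12.32 at day 4 in wild type EBs (2.78 ± 1.20, 13 probe sets). *T* was at 9.91 at day 8 and 11.83 at day 4 in *Mst-/-* EBs, against 8.31 at day 8 and 12.52 at day 4 in wild type EBs (2.29 ± 0.93, 11 probe sets). At day 4 these 3 genes differed from wild type by -1.05 to -0.47 on the log2 scale, and at day 8 they were higher by 1.60 to 2.31.

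*Wnt3* (1.92), *Trh* (2.57), the precursor of thyrotropin-releasing hormone, *Tdgf1* (1.62), a coreceptor of Nodal, and the epiblast genes *Fgf5* (1.85), *Zic5* (1.5), *Dnmt3b* (1.44), *Otx2* (1.36) and *Zic2* (1.16) fell less in *Mst-/-* EBs in the same way. Of 14 genes of the primed epiblast, the stage from which the streak arises, 7 were called higher and 0 lower, and the median was 0.70. That median was 0.08 with the brightest probe set alone. *Zic5* was at 0.31 with the mean over probe sets and at -0.32 with the brightest probe set.

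Absent falls, 36 genes, kept their day 4 level in *Mst-/-* EBs. *Lhx1*, a homeobox gene of streak and anterior endoderm, was at 9.54 at day 8 and 9.98 at day 4 in *Mst-/-* EBs, against 6.85 (below background) at day 8 and 11.95 at day 4 in wild type EBs (4.66 ± 0.66, 9 probe sets). *Cer1*, a secreted antagonist of Nodal, BMP and Wnt in anterior endoderm, was at 9.93 at day 8 and 10.37 at day 4 in *Mst-/-* EBs, against 7.68 at day 8 and 11.65 at day 4 in wild type EBs (3.53 ± 0.42, 4 probe sets). *Foxh1* (2.34), a partner of Smad proteins in Nodal signaling, *A4galt* (1.95), a glycolipid enzyme, and *Sall4* (1.41), a factor of pluripotency, were alike. Thus *Lhx1*, *Cer1* and *Foxh1* were lower than wild type at day 4 and higher at day 8. Of 16 genes of definitive endoderm, 8 were called higher and 1 lower (*Nepn*, -1.89), and the median was 1.18.

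Early falls were 87 genes, with medians of 8.28 at day 8 and 8.33 at day 4 in *Mst-/-* EBs, against 8.05 at day 8 and 9.66 at day 4 in wild type EBs. For 85 of the 87 the *Mst-/-* signal was lower at day 4, and 79 lay within 1.5-fold at day 8. *Etv2*, the factor that starts the blood and vessel lineage, was at 9.19 at day 8 and 8.86 at day 4 in *Mst-/-* EBs, against 8.94 at day 8 and 11.43 at day 4 in wild type EBs (2.82 ± 0.61, 7 probe sets). *Mesp1*, which marks the first heart and vessel mesoderm, was at 6.75 (below background) at day 8 and 7.47 at day 4 in *Mst-/-* EBs, against 6.47 (below background) at day 8 and 10.10 at day 4 in wild type EBs (2.91 ± 1.09, 5 probe sets). So for both the wild type signal of day 4 was the highest of the 4 signals. *Mesp1* was also lower at day 8 than at day 4 in *Mst-/-* EBs.

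The neighbour of *Mesp1*, *Mesp2* (1.41), and the somite genes *Tbx6* (1.53), *Dll1* (1.28) and *Dll3* (1.48) were early falls, as were *Snai1* (1.86), a repressor of cadherins, *Lef1* (1.87), a partner of beta-catenin, *Wnt2b*, *Fabp7* (1.37), *Stmn2* (1.45) and *Tead4* (1.40), a DNA-binding partner of Yap. *Slc44a5* (3.92 ± 1.70, 33 probe sets), named after choline transporters, had the highest value among the early falls. It was at 8.13 at day 8 and 7.67 at day 4 in *Mst-/-* EBs, against 6.73 (below background) at day 8 and 10.19 at day 4 in wild type EBs. Unlike most early falls, *Slc44a5* thus ended above wild type at day 8. *Cfap126* (2.72), a gene of cilia, was another early fall.

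**Figure D3:**
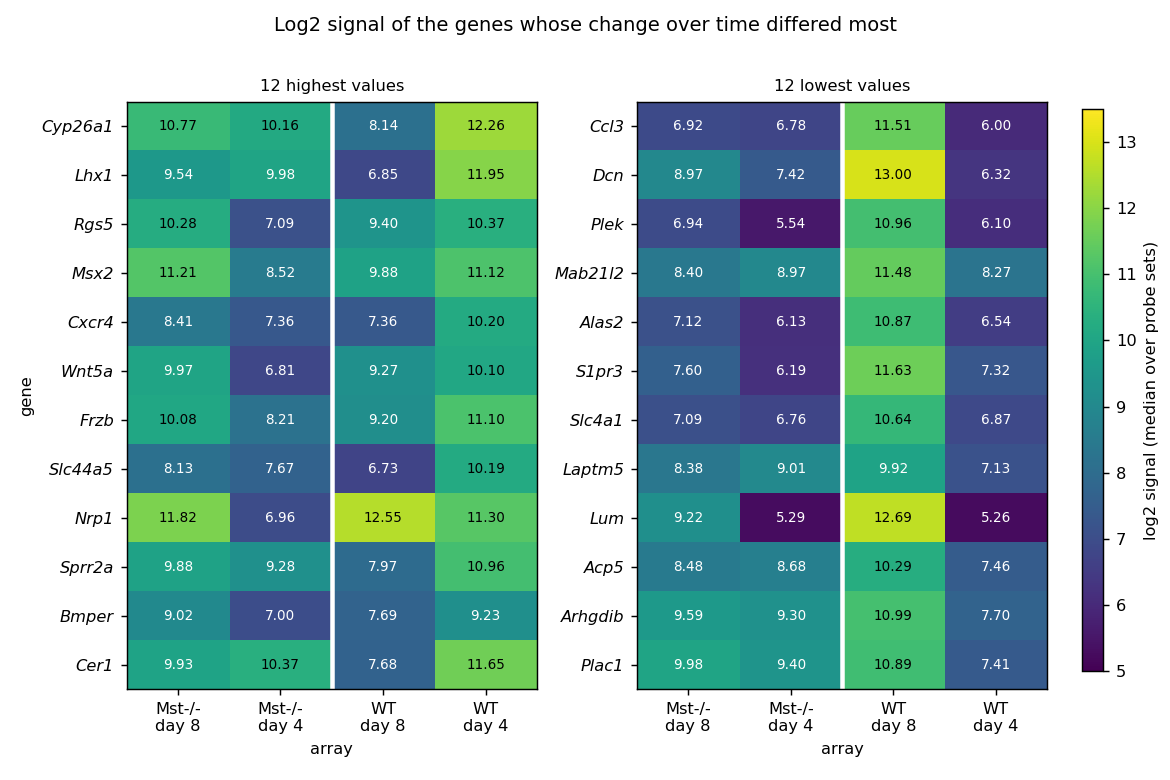
Log2 signal (median over probe sets) on the 4 arrays for the 12 named genes with the highest and the 12 with the lowest interaction values, ordered with signals below background raised to it. *Mst-/-* day 8 and day 4 stand left of wild type day 8 and day 4. Among the 12 highest, the wild type day 4 signal is the highest of the 4 in 10 genes.

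Genes that rose in wild type EBs and stayed flat in *Mst-/-* EBs formed the largest pattern. This absent rise held 183 genes, with medians of 7.40 at day 8 and 7.31 at day 4 in *Mst-/-* EBs, against 9.14 at day 8 and 7.04 at day 4 in wild type EBs. At day 8, 180 were lower in *Mst-/-* EBs by at least 1.5-fold, and 49 were below background on both *Mst-/-* arrays. A further 89 genes rose in both genotypes but less in *Mst-/-* EBs, the reduced rise. Their medians were 8.83 at day 8 and 7.45 at day 4 in *Mst-/-* EBs, against 10.32 at day 8 and 7.29 at day 4 in wild type EBs.

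Red blood cell genes were found in these 2 patterns. Of 13 tested, 10 were called lower and 0 higher, beside 5.23% and 3.72% of all genes, and the median was -2.46. All 13 were above background in wild type EBs at day 8, against 8 in *Mst-/-* EBs at day 8. *Alas2* was listed at 7.12 at day 8 and 6.13 (below background) at day 4 in *Mst-/-* EBs, against 10.87 at day 8 and 6.54 (below background) at day 4 in wild type EBs (-3.34 ± 1.21, 15 probe sets). *Slc4a1*, the anion exchanger of the red cell membrane, was at 7.09 at day 8 and 6.76 (below background) at day 4 in *Mst-/-* EBs, against 10.64 at day 8 and 6.87 (below background) at day 4 in wild type EBs (-3.44 ± 1.52, 22 probe sets). Both were near background in *Mst-/-* EBs on both days.

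The embryonic globins did rise in *Mst-/-* EBs. *Hbb-y* was at 11.06 at day 8 and 6.75 (below background) at day 4 in *Mst-/-* EBs, against 14.04 at day 8 and 6.40 (below background) at day 4 in wild type EBs (-3.33 ± 1.08, 4 probe sets). *Hba-x* was at 10.68 at day 8 and 7.99 at day 4 in *Mst-/-* EBs, against 13.10 at day 8 and 7.95 at day 4 in wild type EBs (-2.46 ± 0.35, 5 probe sets). *Hbb-bh1* (-3.26) was like *Hbb-y*, its neighbour, and globin genes are similar enough that their probe sets may share signal. The factors *Klf1* (-1.76) and *Gfi1b* (-1.45) were called, while *Gata1* (-0.93), the erythropoietin receptor *Epor* (-0.90) and *Nfe2* (-0.46) were not.

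White blood cell genes were next. Of 17 macrophage genes tested, 11 were called lower and 0 higher, with a median of -1.61, and 7 met all demands. That median was -0.87 with signals raised to background, -0.51 with the brightest probe set alone and -2.57 with background at the 99th percentile. In *Mst-/-* EBs 5 of the 17 were above background at day 8 and 7 at day 4, against 16 at day 8 and 7 at day 4 in wild type EBs. *Ccl3*, a chemokine, had the lowest interaction value of all the named genes. It was listed at 6.92 at day 8 and 6.78 (below background) at day 4 in *Mst-/-* EBs, against 11.51 at day 8 and 6.0 (below background) at day 4 in wild type EBs (-5.36 ± 1.59, 4 probe sets). *Fcer1g*, the signaling chain of antibody receptors, was below background in *Mst-/-* EBs at 6.58 at day 8 and 6.73 at day 4, against 9.90 at day 8 and 6.50 (below background) at day 4 in wild type EBs (-3.55 ± 1.29, 5 probe sets). *Spi1*, the factor of the myeloid lineage, had -3.26, *Tyrobp* -2.60 and *C1qb* -2.54. Macrophage genes that were not called were *Cd68* (-0.20), *C1qa* (-0.21), *C1qc* (-0.04), *Mrc1* (-0.20), *Cx3cr1* (-0.78) and *Cd14* (-0.91).

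*Plek*, a protein of platelets and white cells, was listed at 6.94 at day 8 and 5.54 (below background) at day 4 in *Mst-/-* EBs, against 10.96 at day 8 and 6.10 (below background) at day 4 in wild type EBs (-3.46 ± 0.60, 12 probe sets). *Ppbp* and its neighbour *Pf4* (-3.55), platelet factor 4, were alike, and so were the neighbours *Csf2rb* (-3.24) and *Csf2rb2* (-3.0), receptor chains whose sequences are nearly identical. *Acp5*, an acid phosphatase of osteoclasts and macrophages, was at 8.48 at day 8 and 8.68 at day 4 in *Mst-/-* EBs, against 10.29 at day 8 and 7.46 at day 4 in wild type EBs (-3.02 ± 1.24, 6 probe sets). Unlike the others it was above background on every array.

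**Figure D4:**
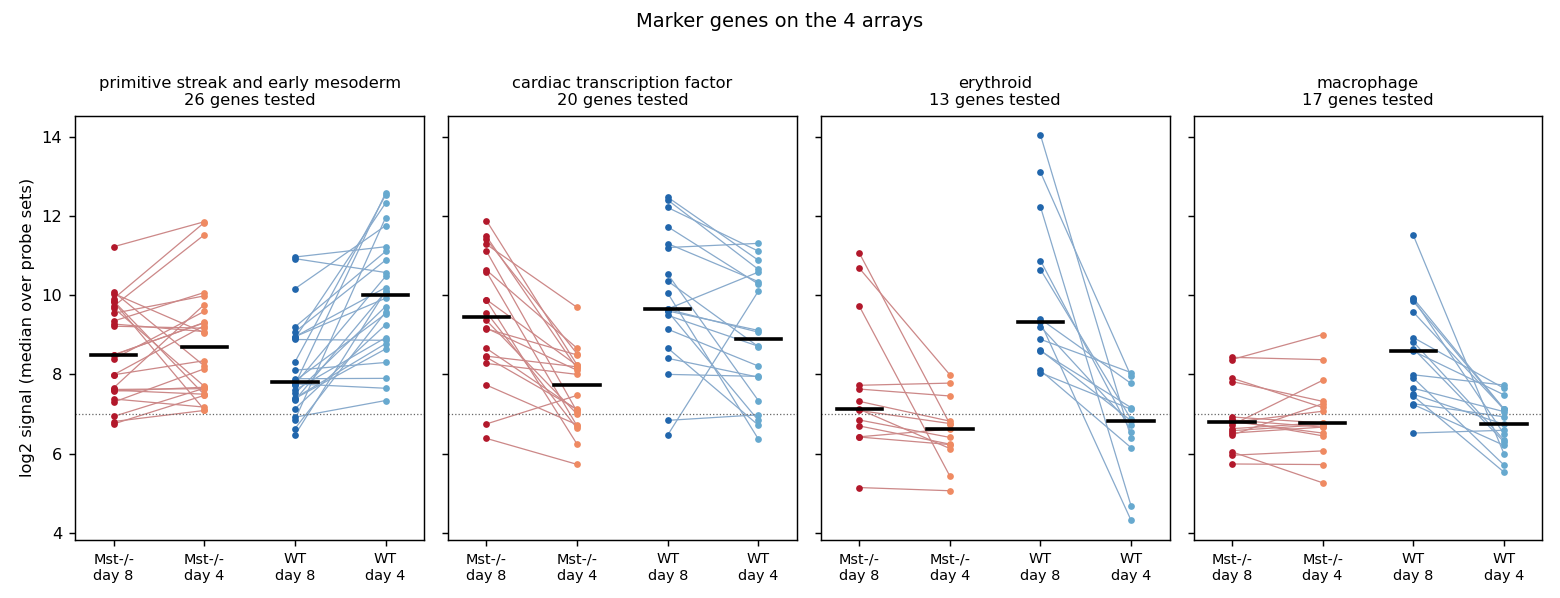
Log2 signals of the tested genes of 4 marker lists on the 4 arrays, with lines joining the 2 days of a genotype and black bars at the medians. The dotted line at 7 is close to background. The streak genes have their highest median in wild type EBs at day 4 (10.00), the cardiac factors their lowest in *Mst-/-* EBs at day 4 (7.74), and the red cell and macrophage genes their highest in wild type EBs at day 8 (9.31 and 8.59).

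Connective tissue genes rose less in *Mst-/-* EBs. *Dcn*, decorin, a proteoglycan that binds collagen, was at 8.97 at day 8 and 7.42 at day 4 in *Mst-/-* EBs, against 13.0 at day 8 and 6.32 (below background) at day 4 in wild type EBs (-5.13 ± 0.92, 9 probe sets). *Lum*, lumican, is its neighbour and a related proteoglycan. *Lum* was at 9.22 at day 8 and 5.29 (below background) at day 4 in *Mst-/-* EBs, against 12.69 at day 8 and 5.26 (below background) at day 4 in wild type EBs (-3.50 ± 0.80, 3 probe sets). The collagens *Col1a2* (-2.58, 52 probe sets), *Col3a1* (-2.39, 54 probe sets) and *Col1a1* (-2.10, 53 probe sets) were alike. Of 18 matrix genes of mesenchyme tested, 8 were called lower and 2 higher (*Bgn*, 1.47, and *Fn1*, 1.07), and the median was -0.80. *S1pr3*, a receptor of sphingosine 1-phosphate, was at 7.60 at day 8 and 6.19 (below background) at day 4 in *Mst-/-* EBs, against 11.63 at day 8 and 7.32 at day 4 in wild type EBs (-2.90 ± 0.46, 5 probe sets). *Mab21l2* (-3.78 ± 1.16, 5 probe sets), a gene of eye and body wall formation, was an absent rise at 8.40 at day 8 and 8.97 at day 4 in *Mst-/-* EBs, against 11.48 at day 8 and 8.27 at day 4 in wild type EBs.

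Heart muscle proteins had a negative median, unlike the heart factors. Of 19 sarcomere and heart muscle genes tested, 7 were called lower, 6 of which met the demands, and 2 higher, and the median was -0.64. *Myh6*, a cardiac myosin heavy chain, was at 8.85 at day 8 and 6.82 (below background) at day 4 in *Mst-/-* EBs, against 10.44 at day 8 and 6.93 (below background) at day 4 in wild type EBs (-1.48 ± 1.06, 39 probe sets). *Myl2* (-1.69), the ventricular light chain, *Mybpc3* (-1.65) and *Actn2* (-1.55) were lower too. With the brightest probe set alone none of these 4 passed 2-fold in this direction: *Myh6* turned to 1.40, *Myl2* was at -0.95, *Mybpc3* at -0.12 and *Actn2* at -0.87. The 2 higher genes, *Tnnc1* (1.66) and *Myl7* (1.41), were late rises that were already on in wild type EBs at day 4. *Myh7* (0.23) and *Actc1* (0.13) were not called. *Afp* (-1.64) and *Trf* (-2.26), serum proteins of visceral endoderm, rose less or not at all in *Mst-/-* EBs, whereas *Rbp4* (-0.01), *Apom* (0.11) and *Fgb* (0.06) changed alike in both genotypes. *Rbp4*, for one, was at 12.10 at day 8 and 7.77 at day 4 in *Mst-/-* EBs, against 12.93 at day 8 and 8.59 at day 4 in wild type EBs. In both genotypes the array taken as day 8 carried the higher signal of this gene. *Rbp4* was chosen after its values were seen, and 1 gene does not settle the day label. Of 20 visceral endoderm genes, 3 were called higher and 4 lower.

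Early rises were 102 genes that stood high in *Mst-/-* EBs already at day 4. Their medians were 9.58 at day 8 and 9.51 at day 4 in *Mst-/-* EBs, against 9.80 at day 8 and 8.12 at day 4 in wild type EBs. Of the 102, 100 were higher in *Mst-/-* EBs at day 4, and 81 were within 1.5-fold at day 8. *Pecam1*, an adhesion protein of vessels that ES cells also carry, was at 10.19 at day 8 and 10.21 at day 4 in *Mst-/-* EBs, against 10.03 at day 8 and 7.45 at day 4 in wild type EBs (-2.60 ± 0.98, 18 probe sets). The vessel genes *Tek* (-2.15) and *Eng* (-1.60) were in this pattern as well. *Nr5a2*, a nuclear receptor of pluripotent cells and endoderm, was at 9.63 at day 8 and 10.15 at day 4 in *Mst-/-* EBs, against 8.91 at day 8 and 7.46 at day 4 in wild type EBs (-1.97 ± 0.62, 11 probe sets).

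*Plac1*, a gene of trophoblast, was at 9.98 at day 8 and 9.41 at day 4 in *Mst-/-* EBs, against 10.89 at day 8 and 7.41 at day 4 in wild type EBs (-2.91 ± 0.34, 4 probe sets). *Plagl1* (-2.62), an imprinted zinc finger gene, and *Tagln* (-1.30), a smooth muscle protein, were further early rises. So the vessel and blood progenitor list held opposite courses: of 26 genes 4 were called higher (*Kdr*, *Etv2*, *Flt1* and *Runx1*) and 8 lower, 7 of which met the demands, among them *Pecam1*, *Tek*, *Eng*, *Emcn* (-1.62) and *Cd34* (-1.96), and the median was -0.15.

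Late falls were 71 genes that were higher in *Mst-/-* EBs at day 4, all 71 by at least 1.5-fold, and fell by day 8. Their medians were 7.84 at day 8 and 9.14 at day 4 in *Mst-/-* EBs, against 7.74 at day 8 and 7.85 at day 4 in wild type EBs. *Nefl*, the light neurofilament, was at 8.83 at day 8 and 11.47 at day 4 in *Mst-/-* EBs, against 8.12 at day 8 and 8.84 at day 4 in wild type EBs (-1.92 ± 0.59, 5 probe sets). Its neighbour *Nefm* (-1.24) and *Nes* (-1.01), an intermediate filament of neural progenitors, were alike. *Cd80*, a costimulatory protein of immune cells, was listed at 6.76 (below background) at day 8 and 9.41 at day 4 in *Mst-/-* EBs, against 6.83 (below background) at day 8 and 7.33 at day 4 in wild type EBs (-2.15 ± 0.87, 7 probe sets). *St8sia3* (-2.40) and *Ugt8a* (-1.65), enzymes of glycolipid synthesis in the nervous system, and *Esrrb* (-1.05), a nuclear receptor of naive ES cells, had the same pattern.

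Genes of naive pluripotency split by interaction value. By their median they were higher in *Mst-/-* EBs on both days, by 1.32 at day 8 and 1.95 at day 4 on the log2 scale. Of 24 tested, 3 were called higher (*Tbx3*, *Trh* and *Sall4*) and 7 lower, 5 of which met the demands, and the median was -0.32. The 7 were *Nr5a2*, *Tfcp2l1* (-1.40), *Nr0b1* (-1.30), *Dppa3* (-1.25), *Sox2*, *Tcl1* (-1.09) and *Esrrb*. *Nanog* (0.28) and *Pou5f1* (0.87) were not called. *Nanog* was at 12.24 at day 8 and 12.99 at day 4 in *Mst-/-* EBs, against 10.36 at day 8 and 11.38 at day 4 in wild type EBs, a fall in both genotypes.

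The remaining patterns were small. In 21 genes the signal rose in *Mst-/-* EBs alone and came no closer to wild type, among them *Foxq1* (1.89), a forkhead gene, *Synb* (1.93), an envelope protein of the placenta, *Slc34a2* (1.12), a phosphate transporter, *Fxyd3* (1.48), a regulator of ion pumps, and *Fgfr4* (1.22), a receptor of fibroblast growth factors. *Lama1* (1.71), a laminin chain of basement membranes, *Tdo2* (1.35), an enzyme that degrades tryptophan, and *Srgn* (1.07), a granule proteoglycan, rose more in *Mst-/-* EBs. In 6 genes, among them *Bcl11a* (-1.48), *Fbp1* (-1.99), *Plcb4* (-1.24) and *Prph* (-1.09), the signal fell in *Mst-/-* EBs alone and came no closer to wild type. In 14 genes neither change passed 1.5-fold, among them *Ktn1* (1.10) and *Pik3cd* (-1.11).

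**Figure D5:**
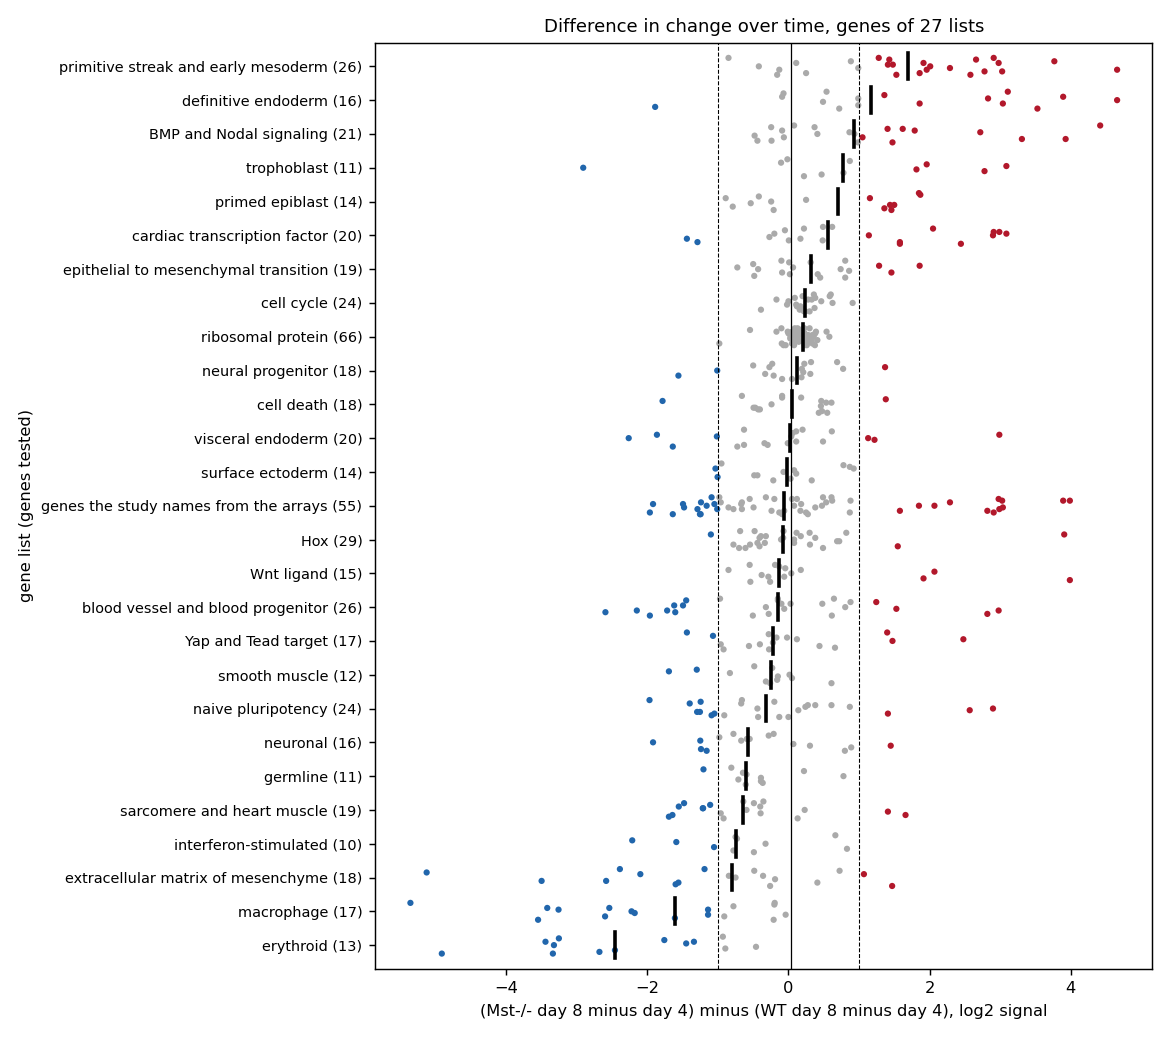
Interaction values of the tested genes of 27 gene lists, 1 point per gene, with the number of genes tested in brackets. Red points are called higher and blue points lower at 2-fold (dashed lines), grey points are not called, black bars are the list medians, and the thin line is the median of all genes tested (0.04). The list medians run from -2.46 (red cell genes) to 1.70 (primitive streak and early mesoderm).

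The other lists are given by their counts, beside 3.72% of all genes tested called higher and 5.23% lower. No gene of 24 of the cell cycle and of 66 ribosomal proteins was called, with medians of 0.23 and 0.20. Of 17 Yap and Tead targets 3 were called higher, 2 of which met the demands, and 2 lower (*Axl*, -1.44, and *Igfbp3*, -1.07), with a median of -0.22. Of 18 genes of cell death, 1 was called in each direction, and the higher one met the demands. The list of epithelial to mesenchymal transition had 3 of 19 higher (*Snai1*, *Cdh2* and *Cdh11*, 1.28), neural progenitors 1 higher and 2 lower of 18 (*Lhx2*, -1.56, and *Nes*), and neurons 1 higher and 4 lower of 16, 3 of which met the demands. Smooth muscle had 2 of 12 lower (*Actg2*, -1.69, and *Tagln*), surface ectoderm 2 of 14 lower (*Tfap2a*, -1.03, and *Krt17*, -1.0), and the germline 1 of 11 lower, which did not meet the demands. Trophoblast genes were called higher in 4 of 11 cases, 3 of which met the demands, and lower in 1 (*Plac1*), with a median of 0.78. Interferon-stimulated genes were called lower in 3 of 10 cases, 1 of which met the demands, with a median of -0.74. Of 58 genes that the study names from these arrays, 55 were tested. Of these 55, 12 were called higher and 13 lower, 10 of which met the demands, and the median was -0.06. That list was chosen on these arrays and is no independent evidence of a direction. The same limit holds in part for other lists, which share genes with it. Shared were 7 of 20 listed cardiac transcription factors, 7 of 27 streak and early mesoderm genes and 9 of 28 naive pluripotency genes. So were 7 of 19 Wnt ligands and 7 of 27 vessel and blood progenitor genes.

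Genes of the 849 that lie next to each other on the genome, with no other measured gene between them, formed 46 pairs with 1 direction, 19 higher and 27 lower. Besides the pairs above they included *Zic5* and *Zic2*, *Alb* (-1.86) and *Afp*, *Cer1* and *Frem1* (1.57), and *Pla2g4a* (-3.82) and *Ptgs2* (-2.59), which both act in prostaglandin synthesis. A list of pairs chosen this way is a description, and how many pairs other genes form was not computed.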

How the data were processed

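RNA of *Mst-/-* and wild type EBs was measured on 4 exon arrays, 1 per genotype and day. The authors deposited log2 signals of 229581 probe sets. Per the submitters' processing notes the Affymetrix Expression Console was used, with no version stated, and the normalization of the signals is unknown here. The methods worked with 1.5-fold, and here 2-fold was set because a value holds the error of 4 arrays. Only the 209279 probe sets with exactly 1 gene symbol were used, since 4446 had several symbols and 15856 had none. RefSeq GRCm38.p6 held 14190 of the 16380 symbols as current names and 2145 as synonyms, and the other 45 stayed as written. Probe sets of a gene (median 11) were combined by their median. Genes above background on at least 1 array were compared.

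Of 1119 genes past 2-fold (8.94%), 270 were left out: 42 had under 3 probe sets, 51 had under 75% of them in agreement and 230 fell under 2-fold with signals raised to background, some on several counts, which left 849 (6.78%). Patterns and changes over time use the raised signals, and other values are as measured. Named genes were the 12 highest and 12 lowest, the 4 most extreme of each pattern, up to 4 of each of 27 lists, the study's genes, those next to the threshold, and *Stk4*, *Hprt* and *Eif2s3y*. Further genes named as examples were chosen after their values were seen. The members and lists were chosen with earlier results of these data known. Promoters were found for 282 of the 367 higher and 364 of the 482 lower genes. The precision is limited by the number of arrays. The computation was tested on simulated arrays. Python 3.11.15, numpy 2.4.6, pandas 2.3.3 and matplotlib 3.10.9 were used.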

Additional observations from a re-analysis of the deposited data

Results flagged for a closer look

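The 2 genotypes moved in opposite directions, each by at least 1.5-fold, in 59 genes that fell in wild type EBs and in 27 genes that rose there. With 1 array per genotype and day this difference was not tested. Among the named genes with a rise in *Mst-/-* EBs and a fall in wild type EBs, the interaction values were 4.71 for *Cyp26a1*, 4.14 for *Rgs5*, 3.99 for *Wnt5a*, 3.93 for *Msx2*, 3.90 for *Cxcr4*, 3.77 for *Frzb*, 3.60 for *Sprr2a*, 3.56 for *Bmper*, 3.31 for *Cfc1*, 3.04 for *Sox17*, 2.90 for *Tbx3*, 2.72 for *Msx1* and 1.46 for *Cdh2*. Among those with a fall in *Mst-/-* EBs and a rise in wild type EBs, they were -3.42 for *Laptm5*, -3.04 for *Ntrk2*, -2.50 for *Scrn1*, -2.46 for *Pde2a*, -1.59 for *Ifitm3* and -1.25 for *Sox2*. All 19 met the demands on probe sets and background.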

How the results depend on the processing

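No paired analysis was possible because each genotype and day had 1 array, and for the same reason no replicate could be left out. With a threshold of 1.5-fold, 1259 genes were called higher and 1434 lower, and 997 and 1107 of them met the demands. With 4-fold, 104 were called higher and 130 lower, and 79 and 84 met the demands. With all probe sets of a gene in 1 direction, 237 higher genes remained, while the 325 lower genes were within 1.5 times of the count in the text. Of the 849 genes, 557 kept their pattern with the mean over probe sets, 336 with the brightest probe set alone and 544 with background at the 99th percentile. The brightest probe set left 448 of the 849 past 2-fold in the same direction (52.8%) and turned the sign of 60, and the mean left 651 (76.7%) and turned none. Named genes whose sign turned with the brightest probe set were *Actg2* (0.23), *Arc* (0.19), *Jade1* (0.08), *Mall* (-0.19), *Myh6* (1.40), *Trf* (0.19), *Wnt2b* (-0.32) and *Zic5* (-0.32), and the cause was not tested. In all, 45 of the 127 named genes among the 849 fell under 2-fold with the brightest probe set, 37 of them without a turn of sign, among them *Nrp1* (0.17), *Hoxb2* (0.45), *Afp* (-0.08), *Fbp1* (-0.04), *T* (0.92), *Sox2* (-0.61) and *Tbx5* (-0.51). The mean brought 23 of the 127 under 2-fold. Centring and quantile normalization of the arrays left 837 and 814 of the 849 past 2-fold. Of the 27 list medians, 22 to 27 kept their sign under the alternatives. With the brightest probe set the medians of 6 lists moved by more than the spread of the receptor genes, to 0.08 for primed epiblast, 1.03 for primitive streak, -1.80 for red cells, -0.51 for macrophages, 0.07 for neurons and -0.13 for interferon-stimulated genes.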

Other observations

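The genes of this paragraph were chosen after their values were seen. All 3 muscleblind genes, which regulate splicing and of which *Mbnl1* has the largest interaction value in size, were early rises with every probe set in 1 direction. *Mbnl1* was at 10.49 at day 8 and 10.71 at day 4 in *Mst-/-* EBs, against 11.28 at day 8 and 8.62 at day 4 in wild type EBs (-2.88 ± 0.86, 17 probe sets). *Mbnl2* was at 11.62 at day 8 and 11.24 at day 4 in *Mst-/-* EBs, against 11.92 at day 8 and 10.11 at day 4 in wild type EBs (-1.43 ± 0.21, 11 probe sets). *Mbnl3* was at 11.29 at day 8 and 11.48 at day 4 in *Mst-/-* EBs, against 11.84 at day 8 and 9.94 at day 4 in wild type EBs (-2.10 ± 0.78, 8 probe sets). In all 3 the wild type signal of day 4 was the lowest of the 4.

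Of 18 fibroblast growth factors tested, 4 were among the higher genes and 0 among the lower, beside 2.93% and 3.85% of all genes tested. *Fgf10*, a ligand of limb, lung and heart field mesoderm, was at 9.49 at day 8 and 8.05 at day 4 in *Mst-/-* EBs, against 9.20 at day 8 and 10.72 at day 4 in wild type EBs (2.96 ± 0.59, 9 probe sets). *Fgf3* (2.61) and *Fgf16* (1.77) were reversed like *Fgf10*, and *Fgf5* was a reduced fall. Genes of retinoic acid handling other than *Cyp26a1* went both ways: *Crabp1*, a binding protein, had an interaction value of 1.64 and *Stra6*, a receptor of retinol carriers, of 1.47, while *Dhrs3*, which turns retinal back into retinol, had -2.31. *Amot*, a scaffold protein that holds Yap in the cytoplasm, was at 12.16 at day 8 and 10.20 at day 4 in *Mst-/-* EBs, against 11.12 at day 8 and 12.31 at day 4 in wild type EBs (3.15 ± 0.54, 16 probe sets). *Hgf*, a growth factor of mesenchyme, was below background in *Mst-/-* EBs at 6.25 at day 8 and 5.58 at day 4, against 8.96 at day 8 and 5.38 (below background) at day 4 in wild type EBs (-2.90 ± 1.05, 20 probe sets).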
